A study of Arabidopsis thaliana with 3 samples.

Results

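The genes described here are the heat shock protein (HSP) and heat shock factor (HSF) genes of Arabidopsis thaliana, taken as the nuclear protein-coding genes whose symbol in an NCBI gene table begins with HSP or HSF followed by a digit, a letter or a hyphen. The rule uses the symbol alone, though it was set with earlier results of these data known. Of 27444 nuclear protein-coding genes, 35 met it. They comprised 6 small HSP genes, 3 HSP60 genes, 2 HSP70 genes, 3 HSP90 genes, HSP101, 16 HSF genes and 4 genes with other symbols. Chromatin immunoprecipitation with sequencing was made from Col-0 seedlings that expressed JMJ28pro::JMJ28:3xFLAG, in which JMJ28, a JmjC-domain histone demethylase, carries a FLAG epitope tag and is driven by its own promoter. The plants were 14 days old and grew in long days at 22 °C, with 2 ChIP libraries and 1 input library, all from the same transgenic genotype. All values were read from a single summit list that the authors deposited, which holds no value per library. No heat treatment is named in the labels. Plants lacking the tagged protein were not analysed here, so sites of JMJ28 and chromatin that the FLAG antibody recovers unspecifically cannot be told apart.

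Heat shock proteins are chaperones. Small HSPs hold unfolding proteins without using ATP, HSP60 and HSP70 fold or refold proteins with ATP, HSP90 matures receptors and kinases, and HSP101 pulls apart aggregates, which plants need for acquired thermotolerance. Heat shock factors are the transcription factors that bind heat shock elements in the promoters of these genes. In Arabidopsis the class A factors activate transcription, with the HSFA1 proteins as master regulators, while most class B factors lack the activation motif and act largely as repressors. JMJ28 belongs to the demethylase family that acts on H3K9 methylation, a mark of silent chromatin.

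Most heat shock genes carried a JMJ28 summit, at moderate scores. A summit inside the gene or within 1000 bp of it was found at 27 of 35 members (77.1%), against 65.4% of all protein-coding genes. Of the protein-coding genes with lengths in the members' range of 750 to 4625 bp, 67.4% had a summit. The score is the authors' own value for each summit, as their peak caller wrote it. It stands for the strength of evidence for a peak and not for an occupancy level. Members with a summit had a median highest score of 13.2 (range 3.38 to 172), against 13.6 for all protein-coding genes with a summit. One summit was found at 16 members, 2 summits at 10, and 3 at HSP1, so that 31.4% of members had 2 or more, against 29.8% of all genes. With 1 list and no spread between plants, these shares are counts without a test, and no difference between a class and other genes was tested.

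**Figure D1:**
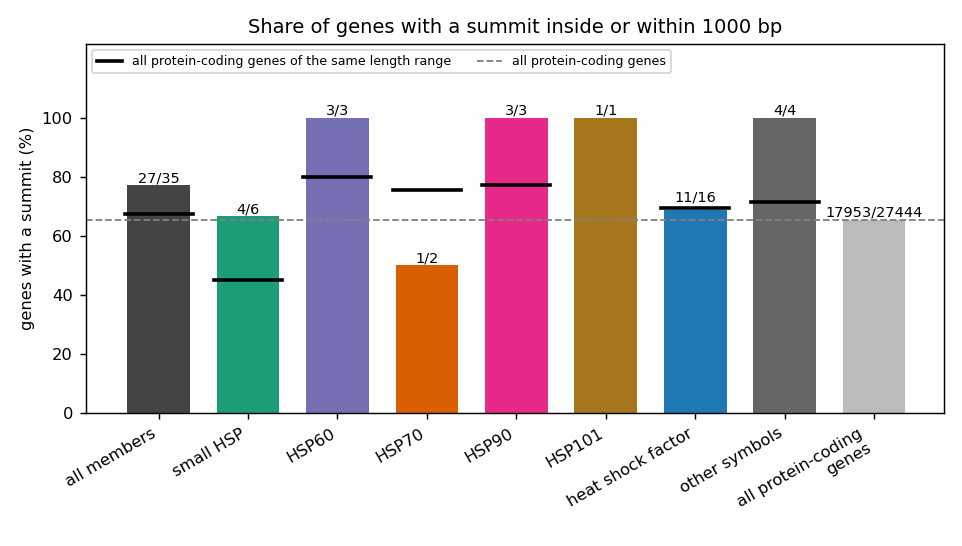
Percentage of genes with a JMJ28 summit inside or within 1000 bp, for all 35 members, each class and all protein-coding genes, with counts above the bars. The dashed line marks all protein-coding genes (65.4%) and the black lines mark genes of the class's length range (not drawn for HSP101); the small HSP bar (66.7%) stands above its line (45.0%) and the HSF bar (68.8%) stands close to its line (69.4%).

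Small HSP genes had a summit in 4 of 6 cases (66.7%). These are short genes, and only 45.0% of the 3216 protein-coding genes between 750 and 1185 bp had one. HSP23.6-MITO, which encodes a mitochondrial small HSP, had a summit inside the gene with a score of 5.58 and another 472 bp outside it with a score of 18.8. The outer one, at position 12918582 of chromosome 4, lay inside the neighbouring gene AT4G25210. HSP17.4 and HSP18.2 encode cytosolic class I proteins, and each had a single summit at the very end of the gene. The HSP17.4 summit lay 2 bp inside the gene (chromosome 3, position 16984865, score 13.2), and the HSP18.2 summit lay 21 bp inside it (chromosome 5, position 24062344, score 11.5). HSP17.6II, a cytosolic class II gene, had 1 summit 348 bp inside (chromosome 5, position 3882763, score 7.36). HSP17.6A, its neighbour 845 bp away, had none, and neither did HSP21, which encodes the small HSP of chloroplasts. The 4 highest scores of the class thus spanned 7.36 to 18.8, and no small HSP gene reached the upper quartile of all genes with a summit (26.8).

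All 3 HSP60 genes had a summit, 1 of them inside the gene. They encode ATP-driven chaperonins of mitochondria. HSP60-3A had a summit 37 bp inside the gene (chromosome 3, position 4565298, score 53.8), the third highest score among the members. A second HSP60-3A summit, 344 bp outside the gene (position 4561173, score 25.5), lay inside AT3G13857 and the U6-26 small nuclear RNA gene. HSP60 (chromosome 3, position 8672993, score 8.77) and HSP60-2 (chromosome 2, position 14078933, score 7.36) had a single summit each, 415 and 161 bp outside the gene and inside AT3G24000 and AT2G33220. For these genes the summit therefore fell within the neighbour and not within the chaperonin gene. Of all protein-coding genes between 3807 and 4006 bp, 80.0% had a summit.

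Of the 2 HSP70 genes, 1 had a summit, against 75.4% of the 1818 protein-coding genes between 2504 and 2770 bp. HSP70T-2, which encodes a truncated HSP70, had 1 summit 180 bp inside the gene (chromosome 2, position 13653765, score 16.5). HSP70 (AT3G12580), a heat-inducible cytosolic chaperone gene, had none within 1000 bp. The nearest summit was 1602 bp away inside AT3G12587 (chromosome 3, position 3995488, score 148). HSP101 had a summit 314 bp inside the gene with a score of 8.77 and another 478 bp outside it (chromosome 1, position 27940847, score 9.67). The outer one lay inside the neighbour AT1G74320, and both scores were close to the nuclear median of 9.07.

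The HSP90 genes held the highest score of all members, at HSP81-2. All 3 had a summit, against 77.4% of the 3531 protein-coding genes between 2591 and 3199 bp. HSP81-2, also named HSP90.2, encodes a constitutive cytosolic HSP90, and its main summit lay 88 bp inside the gene (chromosome 5, position 22686561, score 172). Of all nuclear summits, 99.5% scored the same or less. A second HSP81-2 summit stood 315 bp inside the other end of the gene with a score of 16.0. HSP81-3, its neighbour and close relative, had 1 summit 192 bp inside (chromosome 5, position 22681430, score 11.3). HSP90.1, the heat-inducible cytosolic copy, had its summits just outside both ends of the gene, 151 bp away with a score of 11.9 (chromosome 5, position 21355298) and 21 bp away with a score of 6.88. HSP81-2, HSP81-3 and the adjacent Hsp81.4 are highly similar genes, so reads can be shared between them and the state of each copy is uncertain.

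**Figure D2:**
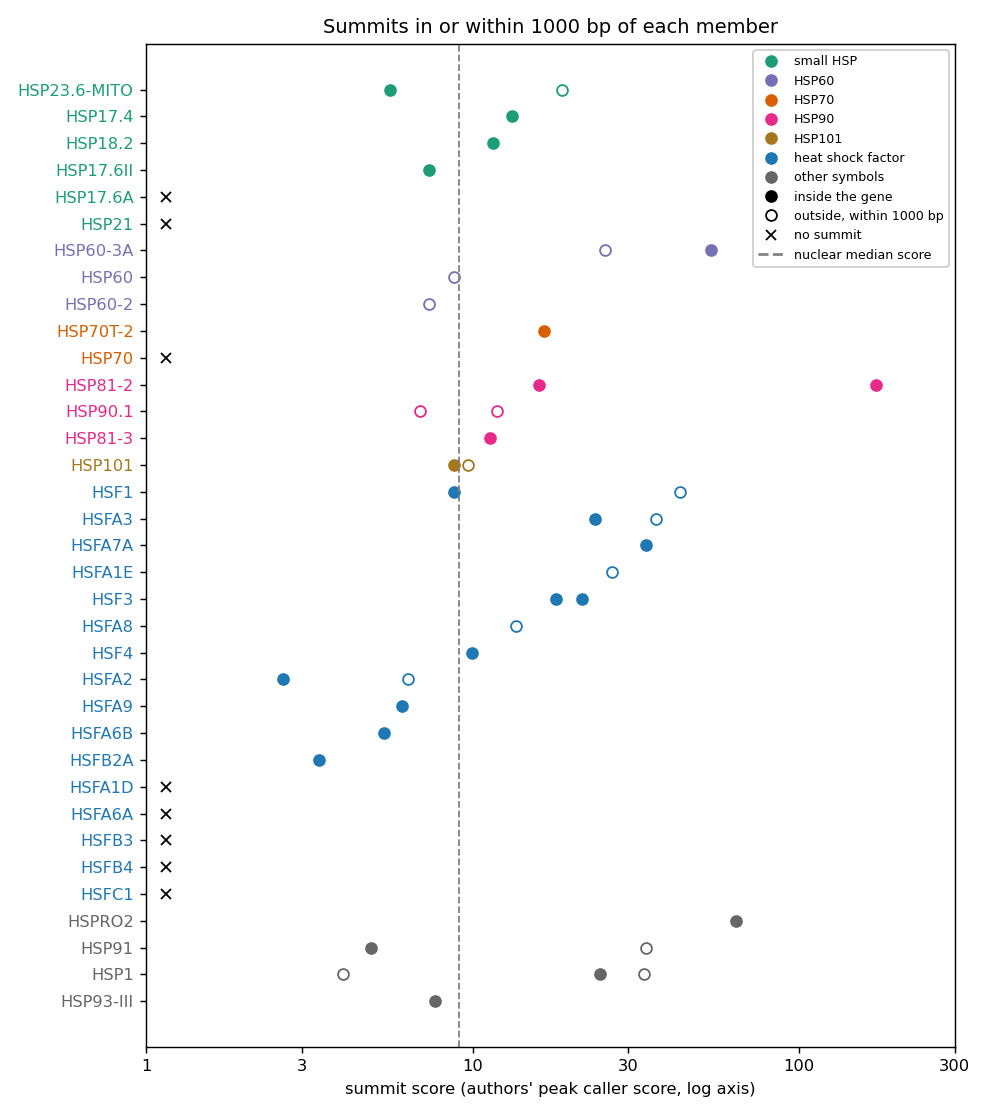
Score of every summit inside (filled) or within 1000 bp outside (open) each of the 35 members, on a log axis, with members ordered by class and by highest score; crosses mark the 8 members without a summit and the dashed line the nuclear median score of 9.07. HSP81-2 stands alone at 172, and among the HSF genes the scores span 2.63 to 43.2.

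Heat shock factor genes had a summit in 11 of 16 cases (68.8%), close to the 69.4% of all protein-coding genes of their length range (1135 to 3508 bp). Class A genes had one in 9 of 11 cases (81.8%) with a median highest score of 21.6. Class B genes had one in 2 of 4 cases (50.0%) with a median of 6.68 over these 2 genes, and HSFC1, the class C gene, had none. The median highest score of all protein-coding genes with a summit was 13.6. The highest summit lay outside the gene at 5 of 9 class A genes (55.6%), against 41.5% of all genes with a summit. At HSF1, HSFA3, HSFA8 and HSFA2 it lay inside a neighbouring gene. Inside the gene, the score was 8.77 at HSF1, 23.7 at HSFA3 and 2.63 at HSFA2. HSFA8 and HSFA1E had no summit inside the gene. The difference between classes A and B was not tested, and it rests on few genes.

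Among the HSFA1 master regulators, 3 of 4 genes had a summit (75.0%). This share stood against 65.4% of all protein-coding genes and 69.4% of those in the HSF length range. HSF1, also named HSFA1A, had the highest score of the factors (43.2, chromosome 4, position 9869545), at a summit 273 bp outside HSF1 and inside AT4G17740. The summit inside HSF1 scored 8.77. HSFA1E had a single summit 12 bp outside the gene (chromosome 3, position 673416, score 26.8). HSF3, also named HSFA1B, had 2 summits inside the gene, the higher 35 bp from its end (chromosome 5, position 5530230, score 21.6) and the lower with a score of 18.0. HSFA1D, the longest HSF gene with 3508 bp, had none within 1000 bp, and its nearest summit was 1170 bp away with a score of 4.64.

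The other class A genes ranged widely. HSFA3, which acts downstream of DREB2A, had summits 95 bp outside the gene (chromosome 5, position 971047, score 36.4, inside AT5G03710) and inside it (score 23.7). HSFA7A, a heat-induced factor gene, had 1 summit 400 bp inside (chromosome 3, position 19265541, score 33.9). HSFA8 had 1 summit 166 bp outside the gene, inside the neighbour POD1 (chromosome 1, position 25484283, score 13.6). The remaining factors with a summit were HSF4, also named HSFB1, HSFA2, HSFA9, HSFA6B and HSFB2A, with highest scores between 3.38 and 9.97. HSFA2, the heat-induced factor that extends the heat response, is singled out here after its values were seen. Its summit inside the gene scored 2.63, the lowest of all member summits with 4.83% of nuclear summits at or below it, and the other scored 6.32, inside the neighbour ftsh4. The HSFA9 summit, with a score of 6.07, lay inside HSFA9 and also inside the U3D small nucleolar RNA gene. HSFA9 is known for its role in seeds.

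The 4 genes with other symbols all had a summit, against 71.6% of all protein-coding genes of their length range, and they are a mixed group. HSPRO2 meets the symbol rule but is named as an ortholog of a sugar beet nematode resistance gene and is not a heat shock protein gene. It had the second highest score of all members, at a summit 672 bp inside the gene (chromosome 2, position 16701664, score 63.9). HSP1, named an HSP20-like protein, had 3 summits, with scores of 24.6 inside the gene, 33.4 inside AT4G14840 at 887 bp (chromosome 4, position 8512815) and 3.99 inside AT4G14820 at 997 bp. HSP91, also named AtHsp70-14, had a summit of its own with a score of 4.87 and lay 804 bp from one inside Hsp70-15 (chromosome 1, position 30062644, score 33.9). HSP93-III, or ClpC2, a chaperone of the chloroplast stroma, had 1 summit 253 bp inside (chromosome 3, position 18126489, score 7.64). Without HSPRO2, 26 of 34 members had a summit (76.5%).

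The 8 members without a summit were HSP70, HSP21, HSP17.6A, HSFA1D, HSFA6A, HSFB3, HSFB4 and HSFC1. For 5 of them a summit lay not far beyond the 1000 bp limit. The nearest summit was 1115 bp from HSP21, 1170 bp from HSFA1D, 1194 bp from HSP17.6A, 1195 bp from HSFA6A and 1602 bp from HSP70, each inside another gene. The 3 others stood farther away, at 2782 bp for HSFB3, 3094 bp for HSFC1 and 25348 bp for HSFB4. HSFB4, also named SCHIZORIZA, patterns root tissues and had the widest stretch without a summit. At the inner side of the limit, the member with the most distant closest summit was HSP60, at 415 bp. Members without a summit were shorter, with a median length of 1507 bp, against 2271 bp for members with one.

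The members had 39 summits, 24 of them inside the member and 15 outside (38.5%), against 41.1% outside over all pairs of a protein-coding gene and a summit. Of the 15 outside, 12 lay inside another gene (80.0%, against 79.6% over all genes). Of the 39 summits, 29 lay inside or within 1000 bp of another protein-coding gene too, which was not counted for all genes. The same held for 14 of the 24 inside a member. Among these 14 were the summits of HSP17.4 and HSP18.2 and the HSP81-2 summit with a score of 172. The highest summit of a member lay within 300 bp of a gene end in 15 of 27 cases (55.6%), against 47.3% of all genes with a summit, with a median distance of 253 bp against 319 bp. The highest summit lay outside the gene at 5 of 9 class A factor genes and inside the gene at 2 of 2 class B genes. Over all members it lay outside in 12 of 27 cases (44.4%), against 41.5% of all genes with a summit. The table gives no strand, so transcription starts and transcript ends were not separated, and no promoter was identified.

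**Figure D3:**
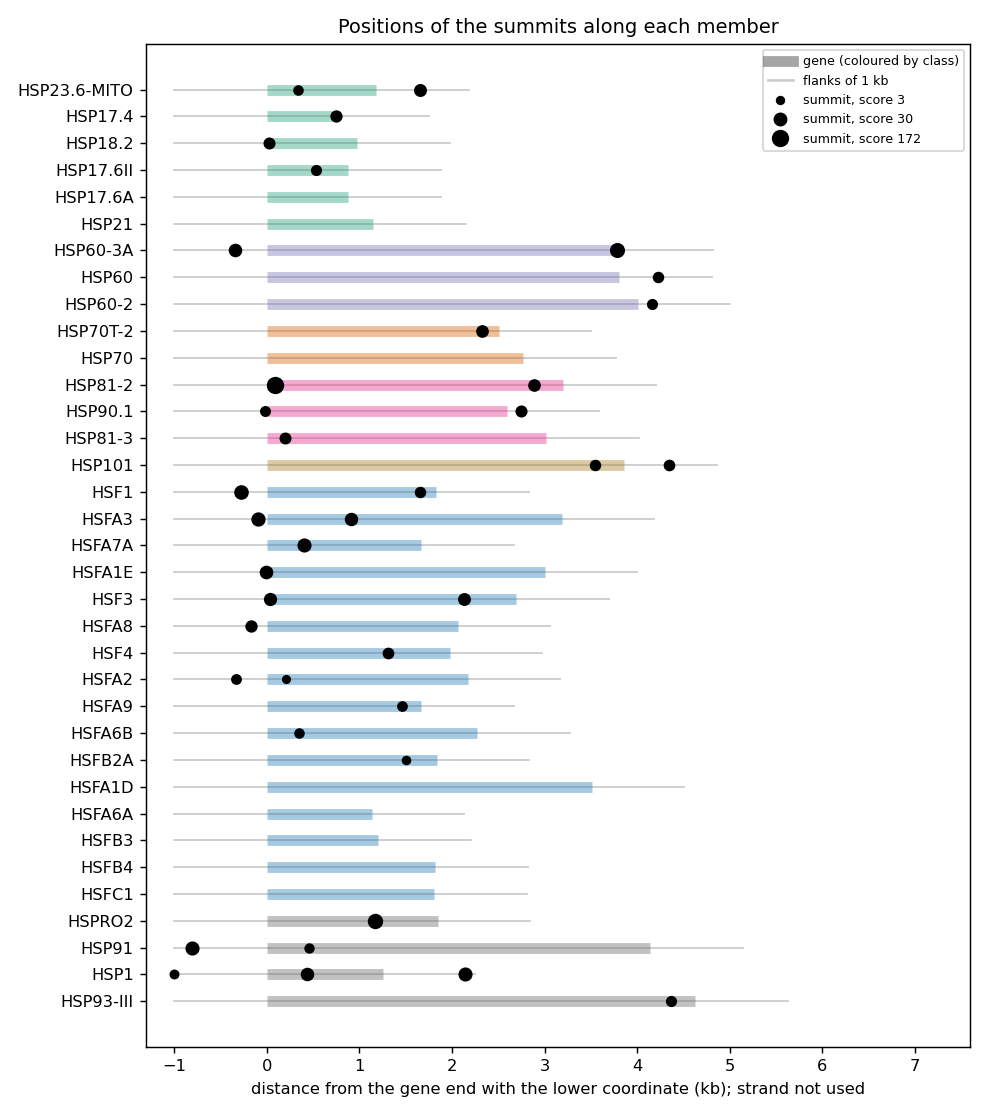
Position of each summit along the 35 members, in kb from the gene end with the lower coordinate, with the gene as a coloured bar, flanks of 1 kb as a thin line and dots that grow with the log of the score; strand was not used. Some summits stand close to an end of the bar, such as those of HSP81-2 (88 bp inside), HSF3 (35 bp inside) and HSP18.2 (21 bp inside), and others far from one, such as that of HSPRO2 (672 bp inside).

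Neighbouring copies differed in their summits. HSP81-2, HSP81-3 and Hsp81.4 lie within one stretch of chromosome 5, and their highest scores were 172 at HSP81-2, 11.3 at HSP81-3, with no summit at Hsp81.4. The HSP17.6II and HSP17.6A pair had a single summit with a score of 7.36, in HSP17.6II. Among genes of the HSP70 family under another spelling, Hsp70-15 and HSP91 stand 623 bp apart and had 4 summits in all, the highest of them (33.9) inside Hsp70-15. Hsp70-2 had no summit, whereas HSC70-1, 917 bp away, had 1 with a score of 25.0. Copies of this kind share sequence, and how the authors placed reads that match several copies was not stated in these sources.

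**Figure D4:**
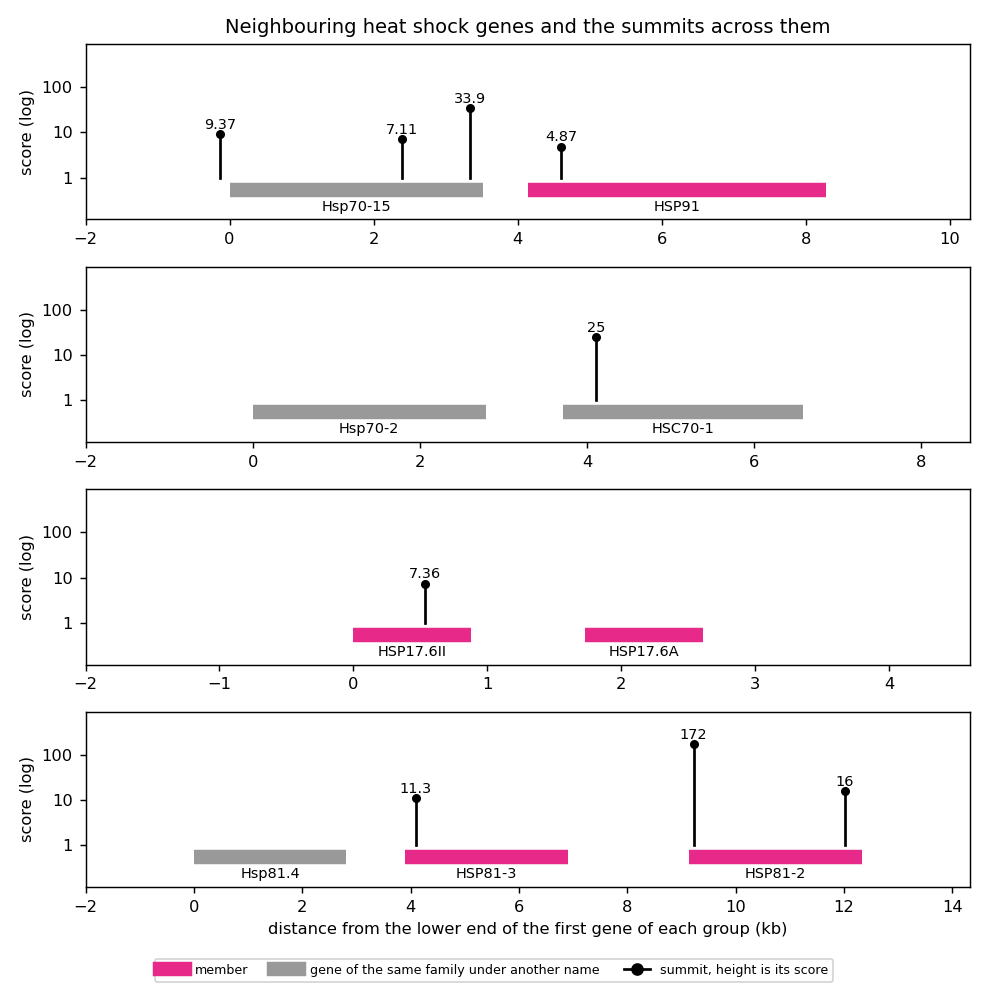
Maps of 4 groups of neighbouring heat shock genes, with distance in kb on the x axis, members in pink, genes of the same families under other names in grey, and summits as vertical lines whose height is the score on a log axis. In the HSP90 group the line at HSP81-2 reaches 172, while Hsp81.4 carries none.

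Genes of the same families that the symbol rule does not take, since they are spelled in another way, were counted separately. Of 23 such genes, 17 had a summit (73.9%), against 65.4% of all protein-coding genes and 70.1% of those in their length range. Their median highest score was 7.92, against 13.6 for all genes with a summit. They included 12 of the HSP70 family, 10 of them with a summit. These were the luminal binding protein genes BIP1 (9.37), BIP2 (7.64) and BIP3 (50.3), HSC70-1 (25.0), mtHsc70-1 (22.0), Hsp70b (7.92), Hsp70-15 (33.9), cpHsc70-1 (7.11), MTHSC70-2 (5.82) and cpHsc70-2 (5.34), each with its highest score. ERD2 and Hsp70-2 had none. Among 4 HSP90 genes, SHD (7.36), the HSP90 of the endoplasmic reticulum, and CR88 (5.82), that of chloroplasts, had a summit, while Hsp81.4 and Hsp89.1 had none. The 5 additional HSF genes had one in 4 cases, at AT-HSFB2B (29.1), HSF A4A (19.6), RHA1 (16.9) and AT-HSFA7B (7.92), and AT-HSFA5 had none. ATHSP22.0, a small HSP gene, had none, and CLPC1, a relative of HSP93-III, had one (5.82). The highest summit lay outside the gene at 3 of the 17 genes with one (17.6%), against 41.5% of all genes with a summit. These were BIP3 (601 bp away), MTHSC70-2 (499 bp) and AT-HSFA7B (911 bp).

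With these genes added, larger parts of the families can be set side by side. Genes were found by symbol or synonym, so the families need not be complete. All 21 HSF genes had a summit in 15 cases (71.4%), with 12 of 15 in class A, 3 of 5 in class B and 0 of 1 in class C. The median highest score was then 18.2 in class A and 9.97 in class B, against 13.6 for all genes with a summit. These scores include summits that lay outside the gene. The HSP70 family, with HSP91 counted in it, had one in 12 of 15 cases (80.0%), and the HSP90 family had one in 5 of 7 cases (71.4%). In the length ranges of the HSP70 and HSP90 members alone, 75.4% and 77.4% of protein-coding genes had one. The wider families also hold genes outside these length ranges. Small HSP genes found by name had one in 4 of 7 cases (57.1%), with HSP1 not counted among them. Over all 58 genes the share was 75.9%, against 65.4% of all protein-coding genes. None of these differences was tested.

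Partner genes of the heat response and of chaperone action were counted from a list, chosen with earlier results of these data known. The list held 24 genes, of which 22 were found in the table. Of the 22 found, 20 had a summit (90.9%), against 65.4% of all protein-coding genes, and the difference was not tested. Of all protein-coding genes in the length range of these 22, 72.7% had a summit. The median highest score of the partners was 16.4, against 13.6 for all genes with a summit. The highest score was at HOP1 (108), one of the proteins that link HSP70 to HSP90. Next came the chloroplast disaggregase gene CLPB3 (56.1) and the ubiquitin ligase gene CHIP (42.1). The CLPB3 summit with this score lay 146 bp outside the gene, and its other summit, 2 bp outside, scored 5.82. The highest summit lay inside the gene at 14 partners and outside it at 6, against 41.5% outside for all genes with a summit. These 6 were CLPB3, BAG6, BZIP28, SGT1B, HSA32 and APX2. HOP2 scored 28.7 and HOP3 only 2.63. GOLS1, a galactinol synthase gene induced by HSFs, scored 35.9, and the transcriptional coactivator gene MBF1C 32.4. DREB2A, an activator of HSFA3, scored 19.2, and HSBP, whose product binds HSFs, 4.42. The remaining partners with a summit were ROF1, ROF2, HSA32, DREB2C, BAG6, J2, FES1A, APX2, BZIP28, SGT1B and RAR1, with highest scores between 3.38 and 26.4. The DnaJ gene J3 and the disaggregase gene CLPB4 had none.

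The shares of members and of all genes depended on how a summit is assigned to a gene. With summits inside the gene only, 22 members (62.9%) were counted, against 47.7% of all genes. The 5 members lost were HSFA8, HSFA1E, HSP60, HSP60-2 and HSP90.1. With flanks of 500 bp the same 27 members (77.1%) remained, against 59.2% of all genes, since every member with a summit had one within 415 bp. With flanks of 2000 bp, 32 members (91.4%) were counted, against 73.3%. When a summit was given to none but the closest gene, 24 members (68.6%) were left, against 51.3%, and HSFA8, HSP60 and HSP60-2 were lost. With scores at or above the nuclear median, 19 members (54.3%) were left, against 43.8%, and with scores of 10 or more, 17 (48.6%) against 40.7%.

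**Figure D5:**
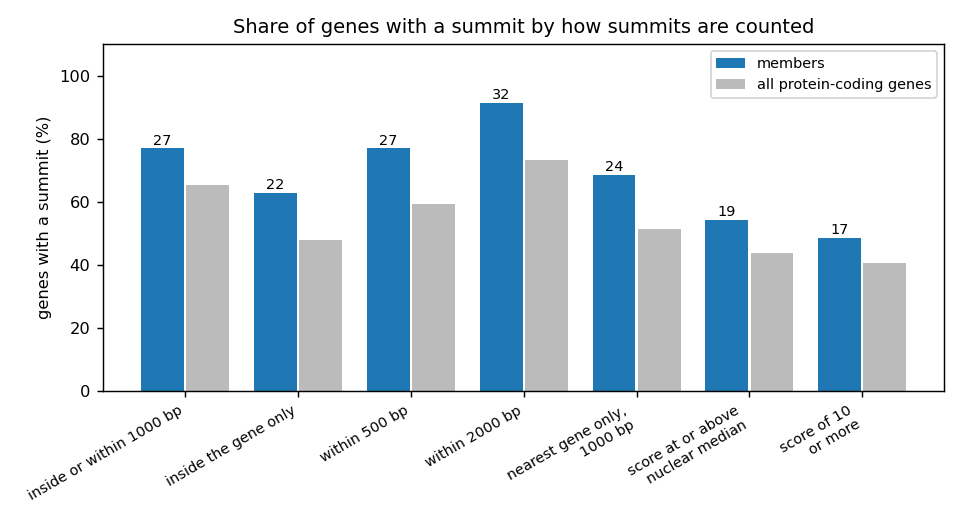
Percentage of the 35 members (blue) and of all 27444 protein-coding genes (grey) with a summit under 7 ways of counting, with the number of members above each blue bar. The blue bar is the higher one in each pair, by as little as 48.6% against 40.7% with scores of 10 or more.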

How the data were processed

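The deposited file is 1 list of 18410 peak summits of 1 bp, 18368 of them on the nuclear chromosomes. Per the submitters' processing notes, Bowtie2, MACS2 and TAIR10 were used; tool versions, the peak threshold, library pooling and input use were not given in the sources used here. Each summit has a score deposited by the authors (nuclear interquartile range 5.10 to 18.4), used as it stands, and sequencing depth is unknown. Genes came from an NCBI table of TAIR10.1 with names and extents but no strand, and only summit positions (counted from 1) are printed. Within 300 bp of a gene end lay at least 52.7% of each chromosome's summits, and at most 28.7% after shifts of up to 5000 bp.

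Members, classes and lists were chosen with earlier results of these data known. Classes follow the number after HSP (81 and 90 as HSP90) or the letters HSF, and HSF classes A to C the symbol or a synonym. Every member is named, with positions for up to 6 of each class with the highest scores. No test was made, since members are not replicates and 1 list has no spread. Heat shock elements, proteins and distances to transcription starts were planned and not analysed here, as no sequence or strand was at hand. Counting was checked on simulated summits. Python 3.11.15, numpy 2.4.6, pandas 2.3.3 and matplotlib 3.10.9 were used.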

Additional observations from a re-analysis of the deposited data

How the results depend on the processing

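The count of members with a summit stayed within 1.5 times its value of 27 in each alternative tried except one: with scores of 10 or more it was 17. Some alternatives also changed the number of genes, so that shares are the better comparison. With symbols in any letter case, 29 of 40 genes had a summit (72.5%). With symbols or synonyms, 38 of 52 had one (73.1%), against 77.1% in the main count and 65.4% of all genes. The median highest score was 13.2, against 13.6 for all genes with a summit. With summits inside the gene only it was 10.6, against 11.2 for all genes. Single classes are small, so their counts moved more. HSP60 genes with a summit were 1 of 3 (33.3%) with summits inside the gene only, against 47.7% of all genes. The same count held with the nearest gene only (51.3% of all genes). It held too with scores at or above the nuclear median (43.8% of all genes) and with scores of 10 or more (40.7%). HSF genes with one were 7 of 16 with scores at or above the nuclear median (43.8%, equal to the 43.8% of all genes) and 6 with scores of 10 or more (37.5%, against 40.7%), where HSP101 had 0. HSP70 genes with a summit numbered 2 of 2 with flanks of 2000 bp, against 73.3% of all genes. With symbols in any letter case, HSP70 and HSP90 genes each numbered 3 of 5, a smaller share than the 65.4% of all genes. With symbols or synonyms, HSP70 genes numbered 5 of 8, again a smaller share, and HSP90 genes 5 of 7, a larger one. No paired analysis was possible because the file is 1 list with no column per library. For the same reason no library could be left out. The alternatives without near-identical proteins and with distance to the transcription start were not run, since no protein sequence or strand was used here.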
